A study of Mus musculus with 12 samples.

Results

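Apc is the scaffold of the cytoplasmic complex that marks beta-catenin for destruction. When Apc is lost, beta-catenin accumulates, enters the nucleus and drives transcription with the TCF/LEF factors, which is the output of Wnt signalling. In the adult liver this signal is normally strongest in the hepatocytes next to the central vein of the lobule and weakest in those next to the portal vein. Hepatocytes of the central end make glutamine from ammonia and metabolise drugs, whereas those of the portal end run the urea cycle, amino acid breakdown and glucose production. The comparison described here asks how liver RNA differs 4 days after Apc is deleted in mice whose Myc genes are intact. The means it compares come from 6 of the 12 arrays of the series.

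The deleted group, called Apc, is labelled AhCre-positive APCflox hom, and the control group, called WT, is labelled AhCre-positive control. Each group has 3 arrays, each hybridised with total RNA of whole liver tissue. AhCre is a Cre recombinase gene under a promoter that responds to the aryl hydrocarbon receptor, so the inducer also acts on the receptor's own target genes. All mice of both groups received 3 injections of the inducer beta-naphthoflavone within 1 day, each at 80 mg/kg, and day 4 was the day of collection. Both groups therefore share Cre and inducer and differ, per the genotype labels, in the floxed Apc alleles. The labels give neither age, sex, strain nor the share of cells that recombined, and they do not state that the arrays of a group came from separate animals. The p-values therefore rest on how far the arrays of a group differ, a spread that could be technical.

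Levels are given as log2(normalized signal + 16), and "difference" means the Apc mean minus the WT mean on that scale. Adding 16 understates the fold of weakly expressed genes. A probe set is called changed at an adjusted p under 0.05 with limma's moderated test, adjusted by the Benjamini-Hochberg method over all 32115 non-control probe sets. Of these, 4996 were called, 15.6% of those tested, with 2529 higher (7.87%) and 2467 lower (7.68%) in Apc. The names come from lists that the authors deposited after selecting probe sets on these same samples, so a named gene is already likely to have changed. Among the 2176 named genes 45.7% were called, 25.3% as rises and 20.4% as falls, and that is the background for every count of list members below. The groups did not overlap for 31.5% of all probe sets and 56.6% of the named genes. The median difference was -0.02 over all probe sets and 0.13 over the named genes. Of the 4996 called probe sets, 3791 have no single name here and enter as counts only. The Apc gene itself and Ctnnb1, which encodes beta-catenin, are not among the named genes, so the deletion could not be checked at its target.

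**Figure D1:**
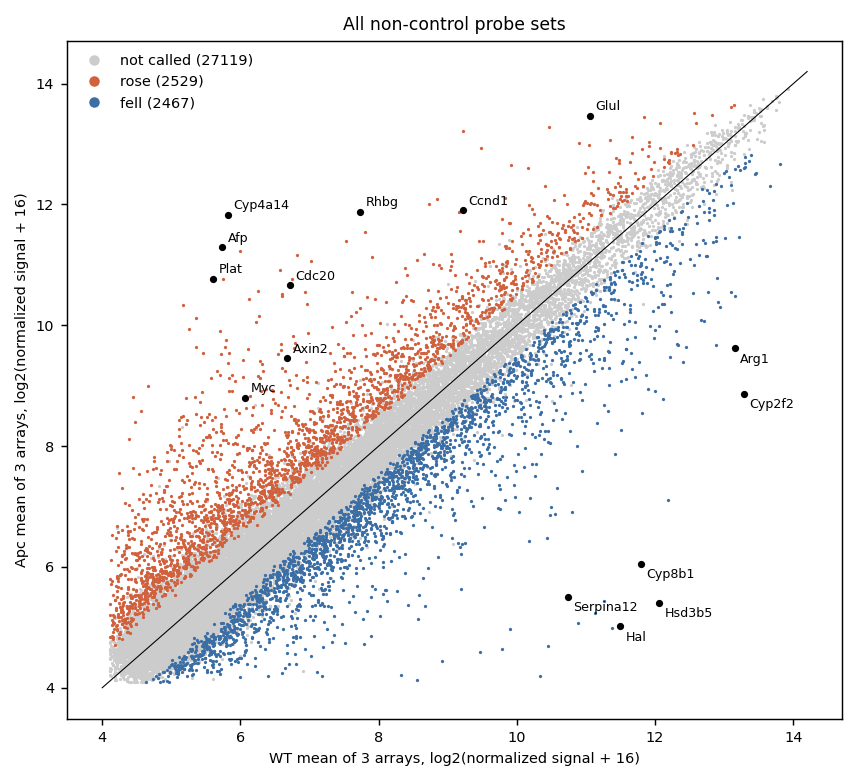
Each point is 1 of the 32115 non-control probe sets, with the mean of the 3 WT arrays on the x axis and the mean of the 3 Apc arrays on the y axis, both as log2(normalized signal + 16). Orange points rose (2529), blue points fell (2467), grey points were not called, black points are named examples and the line marks equal means; the called points lie on both sides of the line in similar number.

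Arrays of a group correlated at 0.957 to 0.975 across probe sets, and arrays of different groups at 0.924 to 0.934. Over these 6 arrays the first principal component held 54.2% of the variance and separated the groups. The next, 16.1%, separated Apc replicate 1 (58.2) from Apc replicates 2 (-15.6) and 3 (-39.5). The title of Apc replicate 1 carries the prefix PAF and those of the other Apc arrays ACG. All WT titles share a different prefix that no Apc title has, so prefix and genotype cannot be separated. The labels do not say what the prefixes stand for, and their part in the differences was not tested. Among the named genes that were called, Apc replicate 1 was the Apc array nearest to the WT mean for 53.9%, against 17% for replicate 2 and 29.1% for replicate 3. WT replicate 1 also differed from the other WT arrays. Its mean over the endothelial, stellate and Kupffer cell markers lay 0.51 to 0.65 above the WT mean, and its mean over the mitotic genes 0.41 above. The array control for the 5' end of 18S rRNA was highest in replicate 1 of both groups, at 10.21 in WT against 8.55 and 8.66, and at 11.66 in Apc against 9.26 and 8.24. Values are given by array below where a result turns on these arrays.

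Genes that beta-catenin controls directly, or that feed back on Wnt signalling, mostly rose. Of 17 measured members of this list 13 rose and 2 fell, with a median difference of 1.94. Axin2, a scaffold of the destruction complex that Wnt signalling induces as a brake, read 7.09, 6.42 and 6.52 in the WT arrays and 9.31, 9.55 and 9.5 in the Apc arrays. Every Apc array stood above every WT array by more than 2 log2 units (difference 2.77, SE 0.253, adjusted p = 2.04e-05). Lgr5, a receptor for R-spondins that strengthens Wnt signalling, read 6.68, 6.54 and 6.87 in WT and 9.40, 9.21 and 8.68 in Apc (difference 2.40, adjusted p = 9.49e-06). Sp5, a repressor that is itself a Wnt target, reached 8.88 to 8.96 in the Apc arrays from 5.63 to 6.30 in WT.

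The other Wnt genes that rose carry several roles. Tcf7, a TCF/LEF factor, rose by 1.76 and its Apc arrays lay within 8.47 to 8.51. Rnf43, a ubiquitin ligase that removes Wnt receptors, rose by 1.86, and Tnfrsf19, a receptor of the TNF family, by 2.46. Lect2, a secreted liver protein, rose by 1.94 from an already high level of 11.05. Tbx3 (1.7), a repressor of the T-box family, Prom1 (3.21), a membrane glycoprotein of progenitor cells, and Jun (2.18), a subunit of AP-1, also rose.

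Myc and Ccnd1 are the growth regulators of the list. Myc read 6.56, 5.30 and 6.35 in the WT arrays and 8.73, 9.09 and 8.58 in the Apc arrays, with no overlap. Its WT values were spread more widely than its Apc values (SD 0.678 against 0.258, n = 3 each; difference 2.73, adjusted p = 5.85e-05). Ccnd1, the cyclin that starts G1 phase, read 9.49, 9.23 and 8.95 in WT and 11.07, 12.24 and 12.39 in Apc, so that Apc replicate 1 was the lowest of its group (difference 2.68, adjusted p = 0.000712).

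The members that fell were Lgr4 and Ctnnbip1. Lgr4 is the R-spondin receptor that hepatocytes express broadly, and it dropped by 1.59 on the log2 scale (adjusted p = 0.000567), from 10.33 ± 0.175 to 8.74 ± 0.178 (SD, n = 3). The 2 receptors of one family thus moved in opposite directions, Lgr5 up and Lgr4 down. Ctnnbip1, which binds beta-catenin and keeps it from TCF, fell by 1.06 (adjusted p = 0.000684). Tcf7l2, the TCF factor that is most abundant in liver, and Wif1, a secreted Wnt inhibitor, were not called, at -0.37 (adjusted p = 0.264) and 0.24 (adjusted p = 0.597).

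Promoter stretches of 3 Wnt genes are shown because the TCF/LEF factors are known to bind CTTTGAT and its relatives, and these genes had the smallest p among called Wnt genes whose promoter held a searched motif. Sequences are from RefSeq on GRCm38.p6, in the direction of transcription. Capitals mark CTTTGAT or its reverse complement ATCAAAG. They also mark CCAAT in Sp5 and CACGTG in Tnfrsf19. The first pair covers the 120 bases before the annotated start and the last runs from -227 to -108. The Lect2 stretch is chr13:56548539-56548658 on the minus strand, the Sp5 stretch is chr2:70474803-70474922 on the plus strand and the Tnfrsf19 stretch is chr14:61038095-61038214 on the minus strand.
Lect2: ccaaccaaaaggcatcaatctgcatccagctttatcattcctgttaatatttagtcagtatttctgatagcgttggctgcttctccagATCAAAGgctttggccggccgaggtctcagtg
Sp5: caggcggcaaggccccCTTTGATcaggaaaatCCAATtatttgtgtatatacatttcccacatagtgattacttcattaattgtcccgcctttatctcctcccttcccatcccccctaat
Tnfrsf19: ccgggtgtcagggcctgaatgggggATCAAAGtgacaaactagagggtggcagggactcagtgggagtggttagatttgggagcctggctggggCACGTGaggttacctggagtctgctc

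CTTTGAT on either strand was found in the 250 bases before the start of 3 of 13 promoters of the Wnt genes that rose, or 23.1%, and in 2.82% of the 21262 promoters of protein-coding genes in the table. Those 13 promoters belong to 9 genes, since a gene can have several starts. The related CTTTGAA, which contains the searched motif TTTGAA, was in none of the 13 and in 4.05% of all, and 13 promoters are few for a motif this rare. For the pericentral genes that rose, which share several members with the Wnt list, CTTTGAT was in 3 of 21 promoters (14.3%). A match is a description of letters in this window and not a bound site.

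Genes of the central end of the lobule rose, and those of the portal end fell. Of 24 measured pericentral genes 22 rose and 1 fell, with a median difference of 2.32. Of 22 measured periportal genes 21 fell and none rose, with a median of -2.70. The mean of the pericentral list was 8.37 to 8.40 in the WT arrays and 10.52 to 10.61 in the Apc arrays. For the periportal list it was 11.23 to 11.35 in WT and 7.98 to 8.44 in Apc. The spread within a group was small beside the distance between groups in both lists, with Apc replicate 1 the least reduced array of the periportal list. In bulk tissue a change in the number of cells of a type and a change in RNA per cell cannot be told apart.

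**Figure D2:**
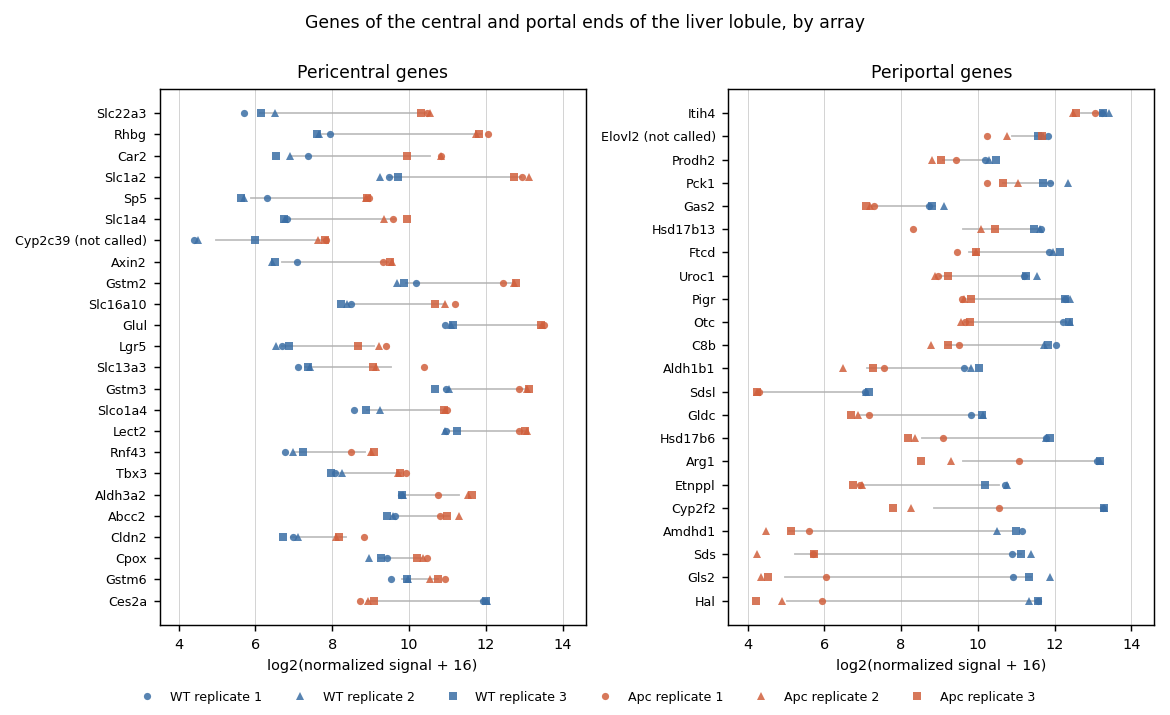
Each row is a named gene of the pericentral (left) or periportal (right) list, and each point is 1 array at its log2(normalized signal + 16), blue for WT and orange for Apc, with marker shape for the replicate. Grey lines join the group means; orange lies to the right of blue for nearly all pericentral genes and to the left for the periportal genes, with Ces2a as the pericentral gene that fell.

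The ammonia and glutamine genes of the central end rose together. Glul, glutamine synthetase, read 10.93, 11.10 and 11.15 in WT and 13.51, 13.47 and 13.44 in Apc. Its Apc arrays differed by less than 0.1 from each other. Rhbg, an ammonium transporter, went from 7.73 ± 0.177 to 11.88 ± 0.164 (SD, n = 3), a 17.7-fold rise on this scale. Slc1a2, a glutamate carrier listed as 2900019G14Rik, rose by 3.45 (adjusted p = 7.01e-07) in its brightest probe set and by 2.38 to 4.33 across all 5. Slc1a4, a carrier of alanine, serine and cysteine, rose by 2.85. At the portal end Gls2, the liver glutaminase that releases ammonia from glutamine, read 10.91, 11.89 and 11.33 in WT and 6.04, 4.36 and 4.54 in Apc. The Apc values of Gls2 lie close to the bottom of the scale, so its fold of 84.3 is set largely by the added 16.

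Other pericentral genes that rose included Slc22a3 (4.32), a carrier of organic cations, and Car2 (3.61), a carbonic anhydrase. Slc13a3, a dicarboxylate carrier, rose by 2.24, Slc16a10, a carrier of aromatic amino acids, by 2.57, and Cldn2, a tight junction protein, by 1.44. Gstm2 (2.74) and Gstm3 (2.12) conjugate glutathione to drugs, and their probes may read close relatives. Cpox, an enzyme of heme synthesis, rose by 1.12. Cyp2c39 had the higher values in every Apc array (7.62 to 7.85, against 4.39 to 6.0 in WT) but was not called (adjusted p = 0.151). The exception was Ces2a, a carboxylesterase listed as Ces6, which was 11.93 to 12.03 in WT and 8.71 to 9.10 in Apc (difference -3.08, adjusted p = 1.27e-07).

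At the portal end Cyp2f2, a cytochrome P450 and a marker of these cells, read 13.27, 13.29 and 13.29 in WT. In the Apc arrays it read 10.54, 8.27 and 7.79, so every Apc array was lower but replicate 1 lay more than 2 log2 units above the others (difference -4.41, SE 0.501, adjusted p = 0.00011). Arg1, the arginase that ends the urea cycle, showed the same order, with 13.11, 13.17 and 13.17 in WT and 11.06, 9.30 and 8.52 in Apc. Otc, the urea cycle enzyme that makes citrulline, had no such order: it read 12.22, 12.40 and 12.37 in WT and 9.67, 9.55 and 9.80 in Apc, and its 3 probe sets all fell.

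The mildest changes of the periportal list were in Pck1, which starts glucose production (-1.32, adjusted p = 0.00221), and Itih4, a plasma protein (-0.61, adjusted p = 0.0269), whose call was lost when any of WT replicates 2 and 3 or Apc replicates 2 and 3 was left out. Elovl2, a fatty acid elongase, was not called (-0.82, adjusted p = 0.0614) and its Apc arrays, at 10.24, 10.77 and 11.66, reached into the WT range. Of the 8 urea cycle and ammonia genes, which share members with both zonation lists, 4 fell, 3 rose and Glud1, the mitochondrial glutamate dehydrogenase, was not called (-0.38, adjusted p = 0.11).

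Enzymes that break down amino acids fell as a group. Of 20 measured genes 18 fell and 1 rose, with a median difference of -2.07. The histidine pathway fell in all 4 of its measured steps: Hal, which removes the amino group, by 6.47, Uroc1 by 2.32, Amdhd1 by 5.80 and Ftcd by 2.21. Hal read 11.58, 11.33 and 11.57 in WT and 5.95, 4.89 and 4.21 in Apc. In the tryptophan pathway Kynu (-3.62), Kyat1 (listed as Ccbl1, -2.74), Afmid (-2.44) and Haao (-1.43) fell, and all 4 probe sets of Kyat1 did.

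Of the serine and glycine genes, Sds, which turns serine into pyruvate, read 10.88, 11.38 and 11.12 in WT and 5.71, 4.25 and 5.73 in Apc, and its relative Sdsl (-2.85) and Gldc (-3.11), of glycine cleavage, fell as well. The 1 gene of the list that rose was Psat1, of serine synthesis, at 5.99, 4.17 and 5.06 in WT and 7.74, 7.87 and 7.23 in Apc (difference 2.54, adjusted p = 0.000614). Phgdh, the step before Psat1, was not called (0.60, adjusted p = 0.25). The enzymes of branched-chain amino acids that fell were Mccc2 (-1.92) and, more weakly, Hibch (-1.02) and Bckdha (-0.62). The calls of Hibch and Bckdha were lost when some single arrays were left out.

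Genes of cell division rose, less in Apc replicate 1 than in the other Apc arrays. Of 33 measured genes of mitosis and cytokinesis 29 rose and none fell, with a median difference of 2.37. Of 12 genes of G1 and S phase control 9 rose and none fell (median 2.23), and of 16 genes of DNA replication 13 rose and 1 fell (median 1.29). Many of these genes have low signals: without the low probe sets 12 of the mitotic genes were tested, of which 11 rose, and 9 of the replication genes, of which 7 rose. Apc replicate 1 was the Apc array nearest to WT for 93.1% of the 29 mitotic genes that rose. The median distance of these genes from the WT mean was 2.06 in Apc replicate 1, 2.63 in replicate 2 and 3.09 in replicate 3.

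**Figure D3:**
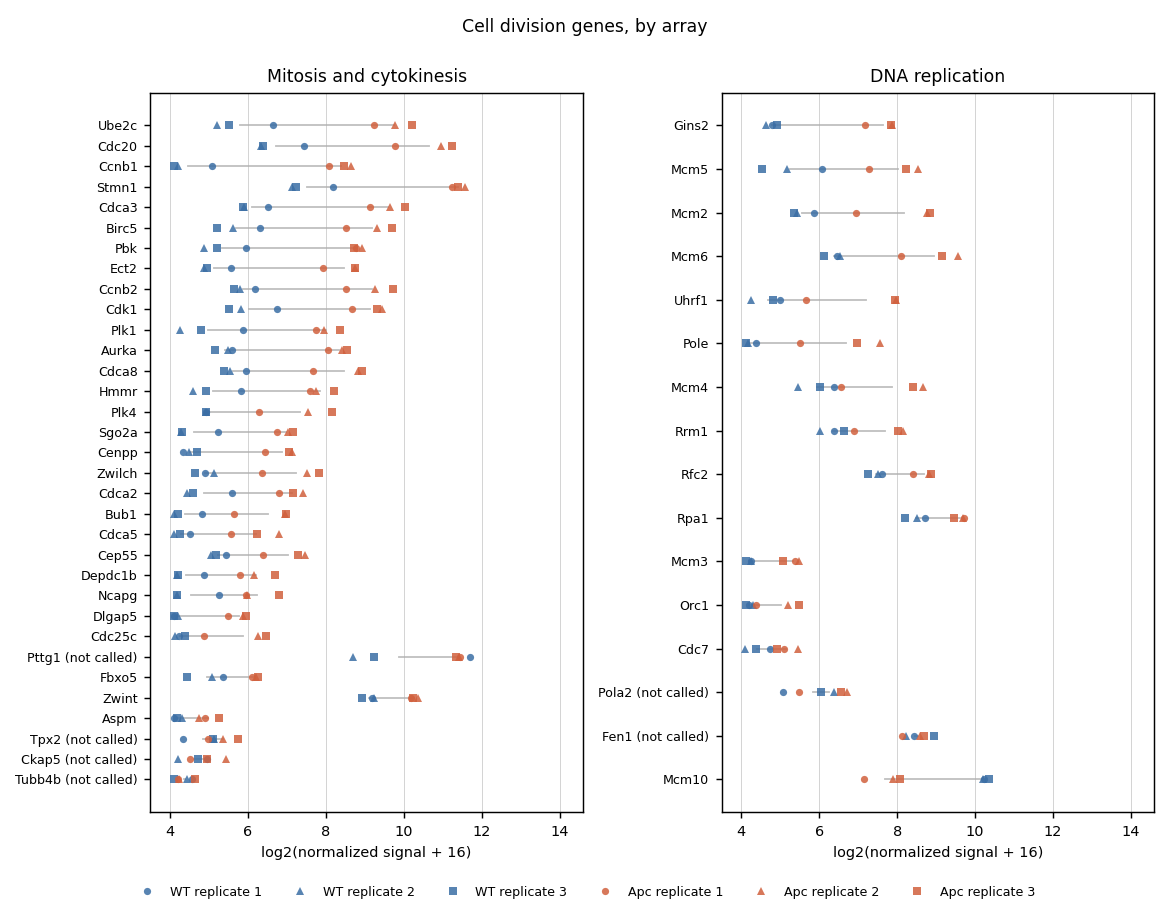
Rows are genes of mitosis and cytokinesis (left) and of DNA replication (right), and points are single arrays at log2(normalized signal + 16), blue for WT and orange for Apc, with marker shape for the replicate. In most rows the Apc circle (replicate 1) is the lowest of the orange points and the WT circle the highest of the blue ones; Mcm10 is the row where the order of the groups is turned.

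Cdc20, which activates the ligase that ends metaphase, read 7.44, 6.33 and 6.38 in WT and 9.77, 10.95 and 11.25 in Apc (difference 3.94, SE 0.598, adjusted p = 0.00086). Ube2c, the conjugating enzyme of the same ligase, read 6.65, 5.21 and 5.52 in WT and 9.25, 9.79 and 10.21 in Apc (difference 3.96). In both genes WT replicate 1 was the highest WT array and Apc replicate 1 the lowest Apc array, and the groups still did not overlap. Ccnb1, the cyclin of mitotic entry, rose by 3.93, Ccnb2 by 3.30 and their kinase Cdk1 (listed as Cdc2a) by 3.11. The kinases Plk1 (3.04) and Aurka (2.93), the chromosomal passenger proteins Birc5 (3.47) and Cdca8 (2.86), and Stmn1 (3.88), which destabilises microtubules, rose with them. Pttg1, securin, was not called (1.53, adjusted p = 0.0922), since WT replicate 1, at 11.70, lay above all 3 Apc arrays (11.35 to 11.45). Tpx2, a spindle protein, was at 0.50 (adjusted p = 0.26).

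The replicative helicase and its loaders rose as well. Mcm5, a helicase subunit, read 6.07, 5.18 and 4.54 in WT and 7.27, 8.54 and 8.23 in Apc (difference 2.76, adjusted p = 0.00182). Mcm2 (2.63) and Mcm6 (2.57), further subunits, and Gins2 (2.85), of the complex that activates the helicase, rose, as did Pole (2.46), a replicative polymerase. Mcm10, which also serves the helicase, went the other way, from 10.21 to 10.36 in WT to 7.16 to 8.06 in Apc (difference -2.57, adjusted p = 1.13e-05). Its value rests on 1 probe set. The number of replication genes that rose was 8 without WT replicate 2 or without Apc replicate 2, and 9 without WT replicate 3 or Apc replicate 3. Uhrf1, Rrm1 and Mcm4 were not called without WT replicate 2 or without Apc replicate 2.

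Cdkn1a, an inhibitor of cyclin-dependent kinases that p53 induces, rose beside the genes of division, from 5.63, 4.36 and 6.37 in WT to 9.69, 9.45 and 9.48 in Apc (difference 4.08, adjusted p = 4.25e-05). Of 14 genes of DNA repair and the damage response 9 rose and none fell, with a median of 1.37. They included Rad51ap1 (2.2), of recombination, Ier3 (2.36) and Gadd45g (2.14), a stress gene. Mdm2, the p53 target that degrades p53, was not called (0.23, adjusted p = 0.646), nor was Atm, a kinase of the damage response (-0.54, adjusted p = 0.109). Cdk6 stood at -0.15 (adjusted p = 0.789) and Foxm1, a factor of mitotic genes, at 0.50 (adjusted p = 0.485), near the bottom of the scale in most arrays.

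Promoters of 3 mitotic genes are shown because CCAAT, the letters that the factor NF-Y binds, was frequent among them. These are the genes with the smallest p among the called mitotic genes whose promoter held a searched motif. Each stretch is the 120 bases before the annotated start on GRCm38.p6 in RefSeq, in the direction of transcription, with CCAAT or its reverse complement ATTGG in capitals. The Aurka stretch is chr2:172370571-172370690 on the minus strand, the Cdca3 stretch is chr6:124830056-124830175 on the plus strand and the Cdca8 stretch is chr4:124936918-124937037 on the minus strand.
Aurka: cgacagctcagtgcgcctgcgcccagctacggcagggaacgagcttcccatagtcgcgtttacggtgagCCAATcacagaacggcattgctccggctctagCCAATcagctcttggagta
Cdca3: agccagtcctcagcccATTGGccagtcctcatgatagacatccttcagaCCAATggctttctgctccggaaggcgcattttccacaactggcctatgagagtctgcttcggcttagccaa
Cdca8: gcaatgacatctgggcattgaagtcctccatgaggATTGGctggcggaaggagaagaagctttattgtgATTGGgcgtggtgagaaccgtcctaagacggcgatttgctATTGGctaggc

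Within the 250 bases before the start, 18 of 25 promoters of the mitotic genes that rose held CCAAT on either strand (72%), against 35.4% of the 21262 promoters of protein-coding genes. Of the 25, 14 held it at 2 or more places (56%), against 11.4% of all. For the replication genes that rose the shares were 81.8% and 54.5% of 11 promoters. For all named genes that rose they were 38% and 15.5% of 523, and for all named genes that fell 35% and 11% of 446. The E-box CACGTG, to which Myc with its partner Max binds, was in none of the 25 mitotic promoters and in 6.63% of all. A set of 25 is small for a motif this rare, and a shortage was not tested. TTTGAA, the core of the element that mitotic genes carry for repression outside mitosis, was in 9 of the 25 (36%) and in 14.5% of all. These shares describe letters in a window, and they draw on gene lists chosen with these data known.

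Genes of the fetal liver and of liver tumours rose. Of 8 measured members 6 rose and none fell, with a median of 2.95. Afp, the fetal counterpart of albumin, read 5.4, 5.64 and 6.18 in WT and 9.78, 12.14 and 11.94 in Apc (difference 5.55, adjusted p = 1.79e-05), and all 4 of its probe sets rose. Ly6d, a surface protein, read 9.92, 11.66 and 12.10 in Apc from 5.80 to 6.27 in WT, and Akr1b7, an aldo-keto reductase, 8.89, 10.23 and 9.80 from 5.22 to 5.49. In all of these Apc replicate 1 was again the lowest of its group. Meg3, a maternally expressed noncoding RNA listed as Gtl2, rose by 2.69 (adjusted p = 0.0108) in its brightest probe set and in 2 of 5 probe sets, and it was not called on the mean of all 5.

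Of 20 measured genes of fatty acid oxidation and PPAR alpha targets 7 rose and 5 fell, with a median of 0.39, shares near those among all named genes. Cyp4a14, an omega-hydroxylase and a target of the lipid sensor PPAR alpha, read 6.34, 5.91 and 5.23 in WT and 10, 12.77 and 12.72 in Apc (difference 6.01, SE 0.899, adjusted p = 0.000763). The acyl-CoA thioesterases Acot3 (4.69) and Acot4 (2.57) rose, as did Acsl4 (2.28), which activates long fatty acids, and Pdk4 (3.83), which blocks the use of pyruvate. Several central genes of fatty acid use were not called. Cpt1a, the gate of mitochondrial uptake, stood at 0.40 (adjusted p = 0.313), Acsl1 at -0.35 (adjusted p = 0.162) and Fabp1, the carrier of fatty acids, at -0.10 (adjusted p = 0.851). Fabp1 lay near the top of the scale (13.71 to 13.87 in WT, 13.34 to 13.87 in Apc), where normalization leaves little room for a rise. Cyp8b1, a bile acid gene under the control of PPAR alpha that this list also holds, was the largest of the 5 falls. The count of 5 was 3 without WT replicate 1, without WT replicate 2 or without Apc replicate 3.

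In the synthesis of fatty acids and glycerides 4 of 14 genes rose and 5 fell. Srebf1, the factor that switches on lipogenesis, read 10.28, 11.37 and 11.17 in WT and 9.38, 8.39 and 8.50 in Apc (difference -2.18, adjusted p = 0.000782). Thrsp, which responds to thyroid hormone and feeding, fell by 2.95 and Elovl3, a fatty acid elongase, by 3.23. Mogat2, which makes diacylglycerol from monoacylglycerol, rose by 3.32, and Chka, the choline kinase, by 2.09. Of 13 genes of glucose use and production 6 rose and 4 fell. Khk, which phosphorylates fructose, fell by 2.15 and Pklr, the liver pyruvate kinase, by 1.59, while Pfkfb1 (1.4) and the monocarboxylate carrier Slc16a7 (1.92) rose. Of 9 genes of cholesterol synthesis and uptake 2 rose and 2 fell, but none rose without WT replicate 3 or without Apc replicate 2, and 1 rose without WT replicate 1 or Apc replicate 3.

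Of 15 measured genes of bile acid synthesis and transport 4 rose and 7 fell. Genes of synthesis and uptake were among those that fell. Cyp8b1, which sets the share of cholic acid, read 11.67, 11.73 and 12 in WT and 6.22, 5.62 and 6.32 in Apc (difference -5.75, adjusted p = 1.59e-06). Cyp7b1, of the alternative route, fell by 2.65, Baat, which conjugates bile acids, by 0.86, and Slc10a1, the sodium-dependent uptake carrier, by 1.49. The transporters Abcc2 (1.49), which exports conjugates into bile, Abcc4 (2.45), which exports them to blood, and Slco1a4 (2.04) rose.

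Of 13 genes regulated by the xenobiotic receptors AhR, CAR and PXR or by the oxidant sensor NRF2, 9 rose and 1 fell. The median of the 13 was 1.90. Without WT replicate 1, 11 rose, and none fell without WT replicate 2 or without Apc replicate 2. Nqo1 (2.16), a quinone reductase, Srxn1 (2.53), a sulfiredoxin, Cbr3 (3.33), a carbonyl reductase, and Por (1.82), the electron donor of cytochromes P450, rose. Cyp1a1, the classical gene of the receptor that the inducer acts on, read 11.02, 6.30 and 7.05 in WT and 11.71, 10.26 and 8.10 in Apc. Replicate 1 was the highest array of each group, the groups overlapped, and Cyp1a1 was not called (adjusted p = 0.263). Cyp1b1, another target of that receptor, had the same order in both groups (6.88, 5.82 and 4.31 in WT; 8.48, 8.04 and 5.88 in Apc) and was not called (adjusted p = 0.0934). The part of residual inducer in the differences was not tested.

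By enzyme family, 11 of 20 cytochromes P450 fell and 3 rose (5 without WT replicate 1), and 4 of 5 glutathione transferases rose while none fell. Cyp2a12 (-2.01), Cyp2j5 (-1.75) and Cyp2u1 (-2.22) were among the P450 genes that fell, and Cyp2c55 (2.47) and Cyp4f16 (1.49) rose beside Cyp4a14. Of 5 glucuronosyl- and sulfotransferases 4 fell. Sult1e1, the estrogen sulfotransferase, was not called (adjusted p = 0.127): it read 4.11 to 4.33 in WT and 9.38, 6.35 and 4.23 in Apc. In this gene Apc replicate 1 was the most displaced array and Apc replicate 3 lay within the WT range, whereas for Cyp4a14 and most mitotic genes Apc replicate 1 was the Apc array nearest to WT.

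Genes whose liver level differs between the sexes moved in a sorted way. Of 19 measured genes that are higher in male liver 15 fell and 1 rose, with a median of -2.40, and of 14 that are higher in female liver 9 rose and 1 fell, with a median of 2.33. Hsd3b5, a steroid enzyme of male liver, read 12.08, 12.15 and 11.96 in WT and 6.24, 4.89 and 5.11 in Apc (difference -6.65, adjusted p = 1.17e-07). Serpina12 (-5.23), Ugt2b38 (-4.89), Elovl3 and Egfr (-2.73) were further male-biased genes that fell, the last in all 4 of its probe sets. Abcd2 (2.64), a peroxisomal transporter, Vldlr (2.09), a lipoprotein receptor, and Trim24 (2.21), a transcription cofactor, were female-biased genes that rose. The sex of the mice is not labelled and no gene of the Y chromosome is named, so a difference in sex between the groups was not tested. Ihh, the male-biased gene that rose (0.93), is a hedgehog ligand. Ptgds (-2.46), a prostaglandin synthase, was the female-biased gene that fell.

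Other regulators of hepatocytes changed in both directions. Of 20 liver transcription factors 7 rose and 4 fell, shares near those among all named genes, and 2 fell without Apc replicate 2. Cebpa, which holds the mature hepatocyte programme, read 11.49, 11.85 and 11.79 in WT and 9.6, 9.73 and 10.07 in Apc (difference -1.91, adjusted p = 2.23e-05). Klf6 (2.14), Id1 (1.98), an inhibitor of basic helix-loop-helix factors, and Atf3 (2.16), a stress factor, rose. Of 5 genes of thyroid hormone response 2 rose and 2 fell. Dio1, which activates thyroid hormone, read 11.22, 11.29 and 11.27 in WT and 5.53, 4.81 and 5.96 in Apc. Of 7 clock genes 3 fell and 1 rose; Dbp, an output of the clock, read 6.75, 8.74 and 9.65 in Apc from 10.98 to 11.46 in WT, and the hour of collection is not given. Of the binding proteins of insulin-like growth factors, Igfbp1 rose by 2.81 and Igfbp2 fell by 3.02.

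Plasma proteins that hepatocytes secrete fell. Of 26 genes of complement and coagulation 18 fell and 1 rose, with a median of -0.93, and 7 of 10 serpins fell and none rose. The lists overlap, since Serpina12 (-5.23) is counted in both and also among the male-biased genes. Without WT replicate 1, 3 of the 26 and 2 of the 10 rose. Of the genes of the membrane attack complex, those that fell were C9 by 2.68, C8b by 2.69, C8a by 2.10 and, more weakly, C8g by 0.82. C9 read 13.12, 13.15 and 13.20 in WT and 10.71, 10.30 and 10.42 in Apc. C6 (-0.45) and Hc, which encodes C5 (-0.72), were not called. The gene that rose was Plat, the tissue plasminogen activator, at 6.15, 5.49 and 5.18 in WT and 9.76, 11.35 and 11.21 in Apc (difference 5.17, adjusted p = 4.05e-06).

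Not all secreted proteins fell. Of 12 acute phase and plasma carrier genes 3 fell and 1 rose: Saa4 (-2.38), Inhba (-2.02) and Apcs (-1.75) fell and Lect2 rose. Without Apc replicate 1, 5 fell. Fetub (-0.72, adjusted p = 0.0595) was not called, and Apoa1 held the highest rank on all 6 arrays, so that normalization gives it the same value on each. Serpina1a, the main antiprotease of plasma, fell by 0.94 (adjusted p = 0.00475) from the very high level of 13.44. Of 17 chaperones and genes of endoplasmic reticulum stress 6 fell and 2 rose. Ern1, a sensor of unfolded protein, fell by 1.09, and Fkbp5, a cochaperone that glucocorticoids induce, rose by 1.37. The number that fell was 3 without WT replicate 2 or without Apc replicate 2, and 9 with a pseudocount of 64, with an intensity trend or without the low probe sets.

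Of 49 solute carriers 16 rose and 13 fell. Apart from the pericentral carriers, Slc1a5 (2.24), a glutamine carrier, and Slc16a5 (2.34), a monocarboxylate carrier, rose. Slc22a7 (-3.27), a carrier of organic anions, Slc30a10 (-2.51), which exports manganese, and Slc3a1 (-2.01), part of a cystine carrier, fell. Aqp8, a water channel of the bile canaliculus, read 10.72, 10.32 and 10.42 in WT and 6.83, 6.71 and 7.41 in Apc. Of 10 subunits and partners of the vacuolar proton pump 5 rose and none fell, led by Atp6v0d2 (2.69).

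Genes of the ribosome and the respiratory chain mostly did not pass the test. None of 8 ribosomal protein genes was called with limma (differences 0.08 to 0.50), and 2 of them had an unadjusted p under 0.05. Among the alternatives, 1 rose without WT replicate 1, and 2 rose with a pseudocount of 64 or with an intensity trend. Of 11 subunits of the respiratory chain and ATP synthase 1 was called, Cox6b2 (2.59), an isoform of testis, and its call was lost on the deposited scores and with a pseudocount of 1. On the deposited scores, with a pseudocount of 64 or with an intensity trend, 2 of the 11 fell. Of 5 genes of ribosome biogenesis and growth downstream of Myc 2 rose and 1 fell. Ncl, nucleolin, rose by 0.96 and Odc1, of polyamine synthesis, by 0.68. The call of Odc1 was lost without any of WT replicates 2 and 3 and Apc replicates 2 and 3. Ubtf, a factor of RNA polymerase I, fell by 2.53 (adjusted p = 7.01e-07). The value of Ubtf rests on 1 probe set, which read 12.86 to 12.94 in WT and 10.10 to 10.53 in Apc. Of 11 kinesins, tubulins and genes of actin and myosin 9 rose, with Tuba8 (3.89) and Tubb2a (2.28) at the head.

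Of 9 apoptosis genes 3 rose and 3 fell. The survival genes Bcl2l1 (1.80) and Mcl1 (1.32) rose, and the latter was not called on the mean of its 2 probe sets. Bik, which promotes cell death, fell by 1.86 and Pdcd4, an inhibitor of translation, by 1.95.

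**Figure D4:**
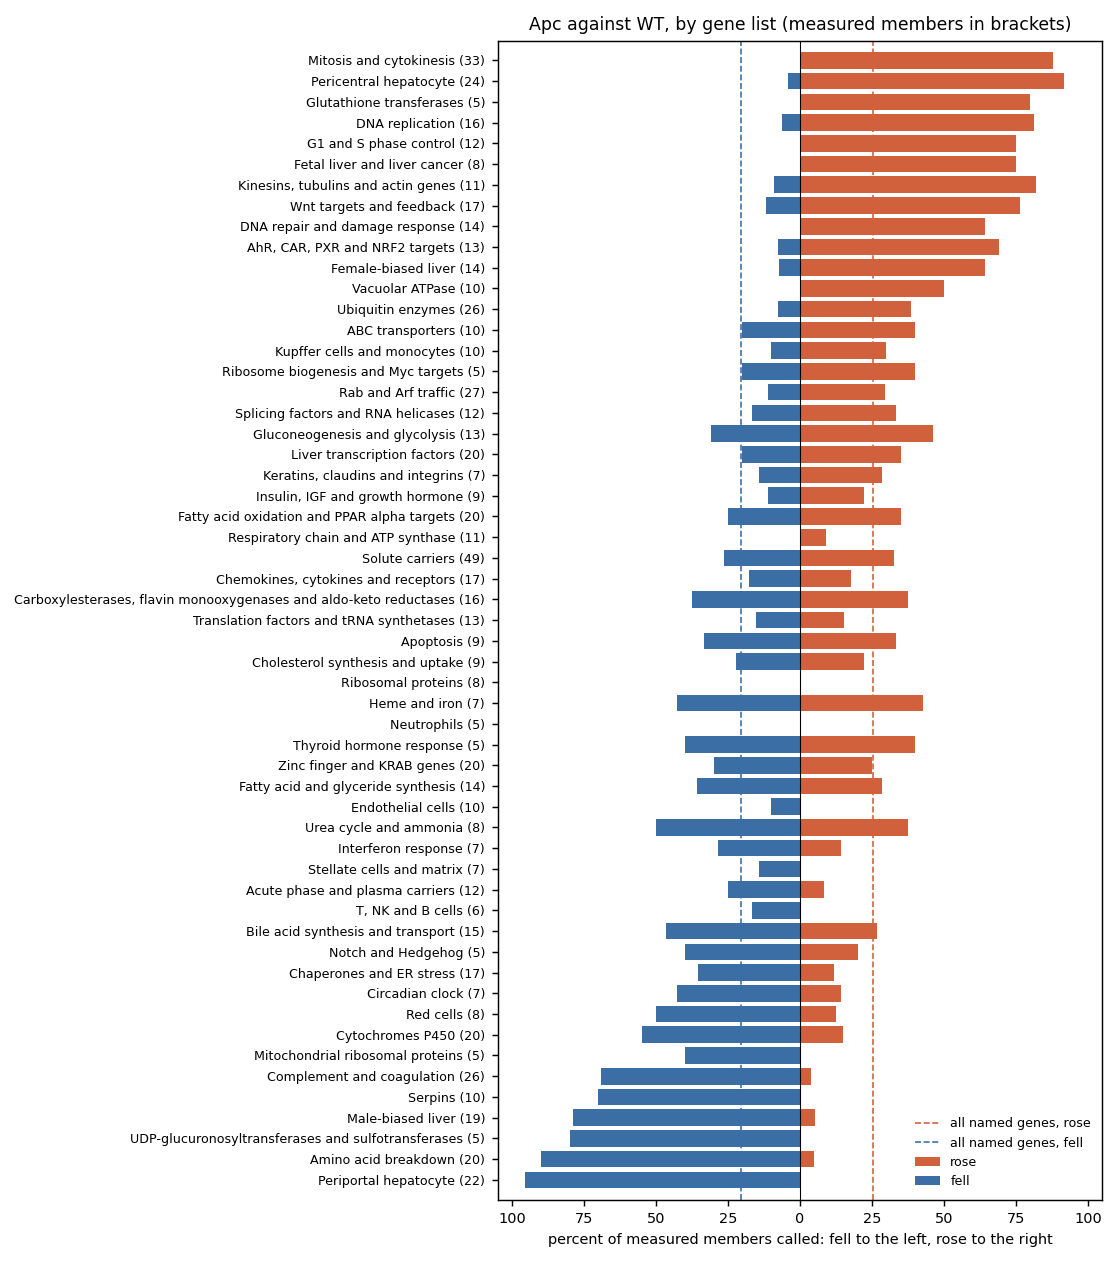
For each gene list with 5 or more measured members, bars give the percent of members that rose (orange, to the right) and fell (blue, to the left), with the number measured in brackets. Dashed lines mark the shares among all named genes, 25.3% for rises and 20.4% for falls; mitotic, pericentral and replication genes extend far to the right, and periportal and amino acid genes far to the left.

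Most markers of the other cells of the liver were not called. Of 10 endothelial markers 1 fell and none rose. Cdh5, which defines endothelial cells, was near the bottom of the scale in all arrays (4.45 to 5.08), and Pecam1 stood at a difference of 0.01. The 1 that fell was Kdr, the receptor of VEGF (-0.95, adjusted p = 0.0247), and its call was lost without WT replicate 1, Apc replicate 2 or Apc replicate 3. Without WT replicate 1, 2 of the 10 rose and none fell. Without WT replicate 2, 2 fell. When the probe sets of each gene were averaged, 1 of the 10 rose. Lyve1, also an endothelial marker, was not called in its brightest probe set (0.76, adjusted p = 0.118). Its other probe set rose by 1.27 (adjusted p = 0.00606 with limma). Of 7 markers of stellate cells and matrix 1 fell, Pdgfrb (-1.32), and none rose, while 3 of the 7 rose without WT replicate 1. None of 5 neutrophil markers was called with limma, while 2 had an unadjusted p under 0.05 and 1 fell without Apc replicate 1. Of 6 lymphocyte markers 1 fell, Zap70 (-0.85). Of 3 markers of bile ducts and progenitor cells 1 rose, Prom1, and of 4 genes of hepatocyte identity 2 fell, Cebpa and Serpina1a.

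Of 10 markers of Kupffer cells and monocytes 3 rose and 1 fell. Timd4, of resident Kupffer cells, fell by 1.04, at 7.06, 6.70 and 7.02 in WT and 5.63, 5.61 and 6.40 in Apc. Lgals3 (1.46), Gpnmb (1.74) and Ccr2 (0.90), which mark activated or recruited macrophages, rose. Lyz2, a general marker of macrophages, stood at -0.02 (adjusted p = 0.981). The number that rose was 5 without WT replicate 1 and 1 without WT replicate 2, WT replicate 3 or Apc replicate 2. The summed signal of the 10 markers was 2922, 1083 and 1279 in the WT arrays and 1793, 2696 and 2083 in the Apc arrays, so WT replicate 1 was the highest and the other WT arrays the lowest. Of 8 red cell genes 4 fell, Alas2 (-2.40), Car1 (-1.79), Tspan33 (-1.29) and Klf1 (-1.13), and Car2, which is also pericentral, rose. The summed signal of the 4 that fell was 1363 to 1545 in WT and 303 to 371 in Apc. The part of any of these cells in the other results was not tested.

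**Figure D5:**
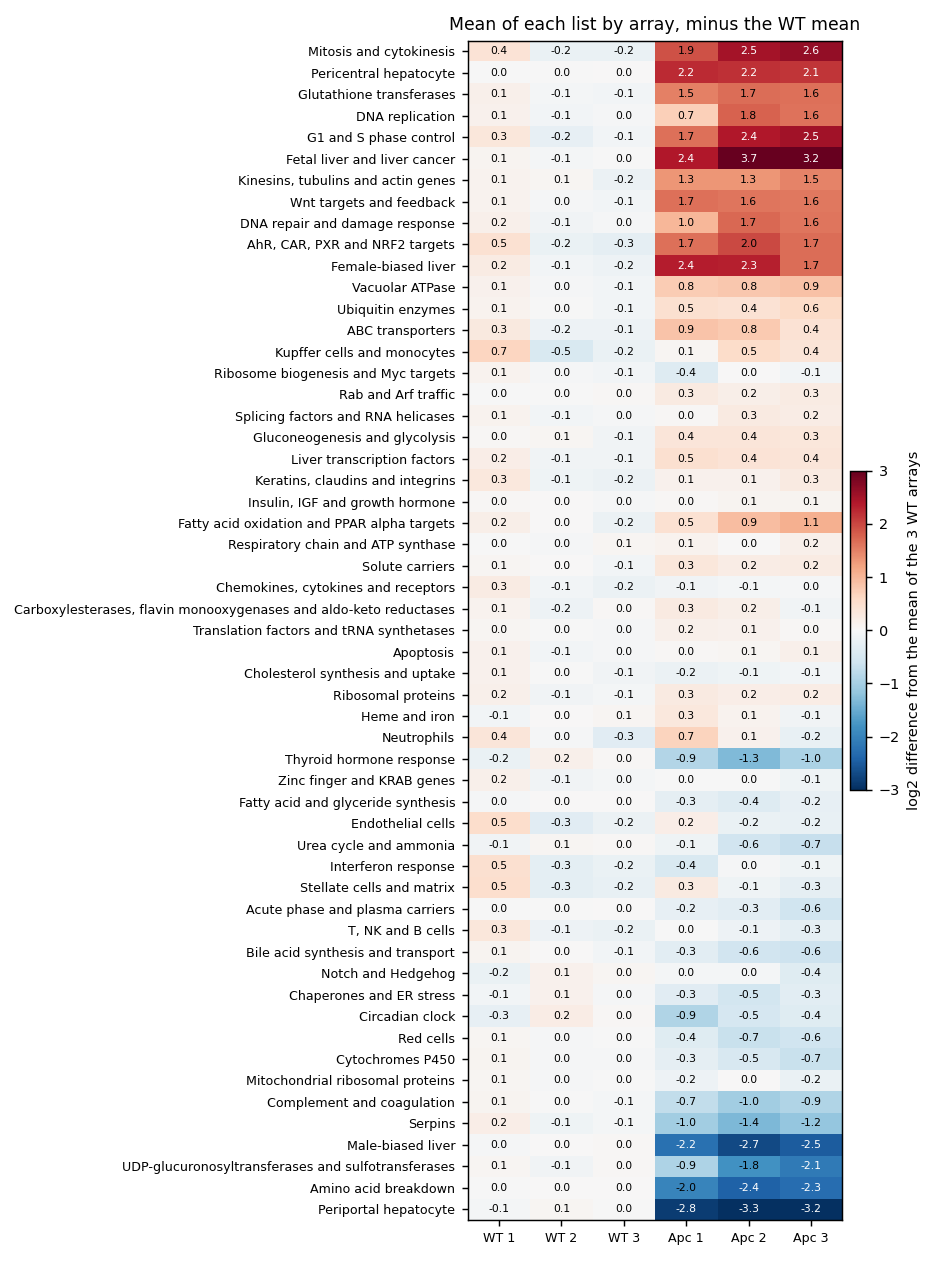
Each cell gives the mean of a gene list on 1 array minus the mean of that list over the 3 WT arrays, in log2 units, with red for higher and blue for lower. The division lists are paler in Apc 1 than in Apc 2 and 3, the zonation lists are far from 0 in all 3 Apc arrays, and the endothelial, Kupffer and stellate lists are highest in WT 1.

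The remaining genes of the largest changes belong to none of the groups above. Isyna1, which makes inositol, rose from 6.75 ± 0.448 to 10.76 ± 0.296 (SD, n = 3; adjusted p = 2.91e-05). Rcan2, an inhibitor of calcineurin, rose by 3.87 and Tnfrsf12a, the receptor of TWEAK, by 3.81, while D17H6S56E-5 (4.35) carries no role here. Keg1 (-3.54) and Inmt (-3.33), an N-methyltransferase, were among the falls, as was Etnppl (listed as Agxt2l1, -3.67), which breaks down phosphoethanolamine.

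The authors' deposited table for this comparison lists 164 probe sets as higher and 86 as lower in Apc. Of these 152 and 79 were called in the same direction here, 19 were not called, and none was called in the opposite direction. The agreeing probe sets are 6.01% of all rises called here and 3.2% of all falls. Among the 269 genes with 2 or more probe sets, Znrf2 was the 1 gene with probe sets called in opposite directions.

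The same contrast exists in mice that also lack Myc, where ApcMyc is compared with Myc. The ApcMyc and Myc arrays carry another title style than the WT and Apc arrays, so Myc status and array set cannot be separated. Median signals before normalization were 59.5 to 106.9 in the former and 35.4 to 53.7 in the latter. An additive shift between the sets cancels in the difference between the responses, and other effects of the set were not tested. The difference between the responses was called for 744 of 32115 probe sets with limma (2.32%) and for 130 of the 2176 named genes (5.97%), against 6028 probe sets (18.8%) at an unadjusted p under 0.05. Most genes described here did not pass that test, which does not show that their responses were alike. The count of 744 ranged from 159 to 1586 over the alternatives, and the genes described here that passed are given after the report with their values.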

How the data were processed

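Liver RNA was hybridised to 12 mouse expression arrays, of which the 6 WT and Apc arrays carry this comparison. The values that the authors deposited are scores close to a standardised log signal of each array. Their mean over an array was -0.0249 to -0.005 and their SD 1.007 to 1.0514. No label or header names the software and probe set summary behind them. The authors' deposited SAM lists give gene names and scores, with SAM run as an unpaired test of classes on 100 permutations per the file headers.

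Linear signals were recovered from the scores, since signals lie on a grid of 0.1 (all within 0.01 of it below 1000). They were quantile normalized over the 12 arrays, 16 was added and log2 taken. This replaces the fit planned for log2 or linear values. Group means were fitted with limma 3.58.1 in R 4.3.3 on all 12 arrays, with Benjamini-Hochberg adjustment over 32115 probe sets after leaving out 61 controls. The procedure was tested on simulated data.

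Of 2975 listed probe sets 2517 have 1 symbol. RefSeq's table (GRCm38.p6) held 1978 of these as current and 376 as synonyms, and 163 were kept as filed. The brightest probe set stands for a gene. Most names come from a list selected on ApcMyc against WT, which holds 2871 of the probe sets. Genes named are the key Wnt and zonation genes, the largest called changes, list members by smallest p or against their list, and some further members. The members and lists were chosen with earlier results of these data known. A few genes meeting it are left unreported.

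Residuals of same-numbered WT and Apc arrays correlated at 0.0627, 0.00557 and -0.0122, so the numbers were not taken to pair the arrays. Alternatives changed the scaling, the pseudocount, the filter on low probe sets, the arrays fitted, an intensity trend, a replicate block, the probe sets averaged and each array left out. The number of arrays limits the precision, and an exact test of 3 against 3 cannot go below p = 0.1.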

Additional observations from a re-analysis of the deposited data

Results flagged for a closer look

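The genes below differed, by limma's interaction test over all probe sets, between the response to Apc loss with Myc deleted and that with Myc intact. Each value is the former response minus the latter, on the log2 scale, so its sign does not say which way the gene moved. Positive values were found for Ugt2b38 (3.62), Thrsp (2.89), Kynu (2.50), Hal (2.48), Tcf7l2 (2.06) and Kdr (1.75). They were also found for Dio1 (1.58), Ubtf (1.46), Mccc2 (1.17), Gldc (1.12), Ces2a (1.06), Ftcd (1.06) and Keg1 (1.0). Negative values were found for Plat (-2.94), Psat1 (-2.68), Myc (-2.49), Fabp1 (-1.65), Slc1a4 (-1.60), Acsl4 (-1.49) and Acot4 (-1.48). Smaller negative values were found for Slc1a2 (-1.42), Cyp4f16 (-1.38), Cldn2 (-1.28) and Rhbg (-1.13). The value for Myc follows a group in which Myc itself was deleted. The genes were named in the report for their response with Myc intact, and the number of such calls moved with the processing. Myc status goes with the title style of the arrays, and the part of the array set in these values was not tested.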

How the results depend on the processing

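The 4996 called probe sets (2529 higher, 2467 lower) became 3151 (1659 and 1492) with only the 6 WT and Apc arrays fitted, and 3341 to 4703 (1686 to 2354 and 1655 to 2349) with 1 array left out. With the replicate number as a block, which the check of residuals does not bear out as a pairing, the counts were 2161 (1162 and 999). The 995 called named genes became 645 with that replicate block and 808 to 983 with 1 array left out.

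Of 367 called genes selected by the rule, 257 kept their call under every alternative with a value, 110 lost it in at least 1 and none reversed its difference between Apc and WT. The 744 calls of the difference between the responses became 1165 with arrays scaled to a common median, 162 on the deposited scores, 194 and 1586 with pseudocounts of 1 and 64, 1398 without low probe sets, 1309 with an intensity trend and 159 to 929 with 1 array left out. The cause was not tested. Small numbers of arrays and low signals limit what could be called.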
